A study of Homo sapiens with 9 samples.

Results

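A set of 32 genes was close to silent in MDA-MB-231 cells carrying a control vector and was read in all 6 libraries of cells carrying a short hairpin RNA against AHR. The genes were chosen by their levels in these libraries, as CPM, a gene's count divided by the total count of the library and multiplied by 1000000. A member had a group mean of at most 0.5 CPM in the control group and of at least 1.5 CPM with each of the hairpin constructs, shAHR#2 and shAHR#3. Of 60649 genes in the count table, 46841 were at or under the control limit, and 32 of those reached the shAHR limit with both constructs. A further 17 reached it with shAHR#2 alone and 21 with shAHR#3 alone. The mirror pattern, at least 1.5 CPM in the control group and at most 0.5 CPM with both constructs, was met by 26 genes. Since the comparison with the control group chose the members, their rise over it is described here and not tested.

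The data were RNA sequencing counts from MDA-MB-231, an established human triple-negative breast cancer line that the labels call mammary epithelial cells, with proliferation as the treatment of every sample. The 9 libraries fell into 3 groups of 3: pLKO-GFP, the non-targeting control vector, shAHR#2 and shAHR#3, named here as the labels number them. All groups had been transduced with lentivirus. The lines were used as transduced populations and not as single-cell clones, so a low count can come from a few cells or from little RNA in every cell, and these cannot be told apart in bulk RNA. No label says whether replicates came from separate cultures, so p-values measure the spread between these libraries, which may be technical.

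AHR, the aryl hydrocarbon receptor, is a sensor of small molecules of the bHLH-PAS family, which dioxins, combustion products and breakdown products of tryptophan can switch on. As a pair with ARNT, another protein of this family, it recognises DNA sites with the core GCGTG. It is best known for inducing enzymes of xenobiotic metabolism such as CYP1A1 and CYP1B1, and its loss can raise genes as well as lower them.

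The libraries held 15991396 to 20374460 counts. At these depths the control limit of 0.5 CPM stood for 8.0 to 10.2 counts and the shAHR limit of 1.5 CPM for 24.0 to 30.6 counts, so control levels of the members rest on few reads and carry mostly counting error. AHR itself lay at 116 to 123 CPM in pLKO-GFP, at 39.3 to 41.4 CPM with shAHR#2 and at 44.8 to 52.1 CPM with shAHR#3, with no overlap. Its level fell by 1.5 on the log2 scale with shAHR#2 and by 1.31 with shAHR#3 (edgeR quasi-likelihood test, Benjamini-Hochberg adjusted p = 1.05e-25 and 4.95e-24). AHR was slightly higher with shAHR#3 than with shAHR#2 (log2 difference 0.19, adjusted p = 0.00283). ESR1 and PGR, which this line lacks, had means of at most 0.153 CPM, and the keratins KRT8 and KRT18 had means of at least 284 CPM in every group.

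The 32 members comprised 26 protein-coding and 6 long noncoding RNA genes on 14 chromosomes. By what their products are known to do, 8 are secreted or matrix proteins, 4 are receptors, 6 are transporters or other membrane proteins, 8 act inside the cell and 6 are long noncoding RNAs. In the control libraries 1 member was at 0 throughout, 4 had 1 to 3 counts over the 3 libraries and 27 had more. A count of at least 1 in each control library was found for 25 members, so the genes were low rather than absent in most cases. The highest count of a member in a control library was 15, the lowest in a shAHR library was 22 and the highest was 397. All 32 members had their 6 shAHR libraries above all 3 control libraries, as the choice favours, while 19.8% of the 14274 genes tested did. Folds over control are given here as ratios of pooled CPM, the summed counts of a group over the summed totals of its libraries. Among members with more than 3 control counts, pooled CPM was 4.92 to 54.9 times the control with shAHR#2 and 3.87 to 39.2 times the control with shAHR#3.

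**Figure D1:**
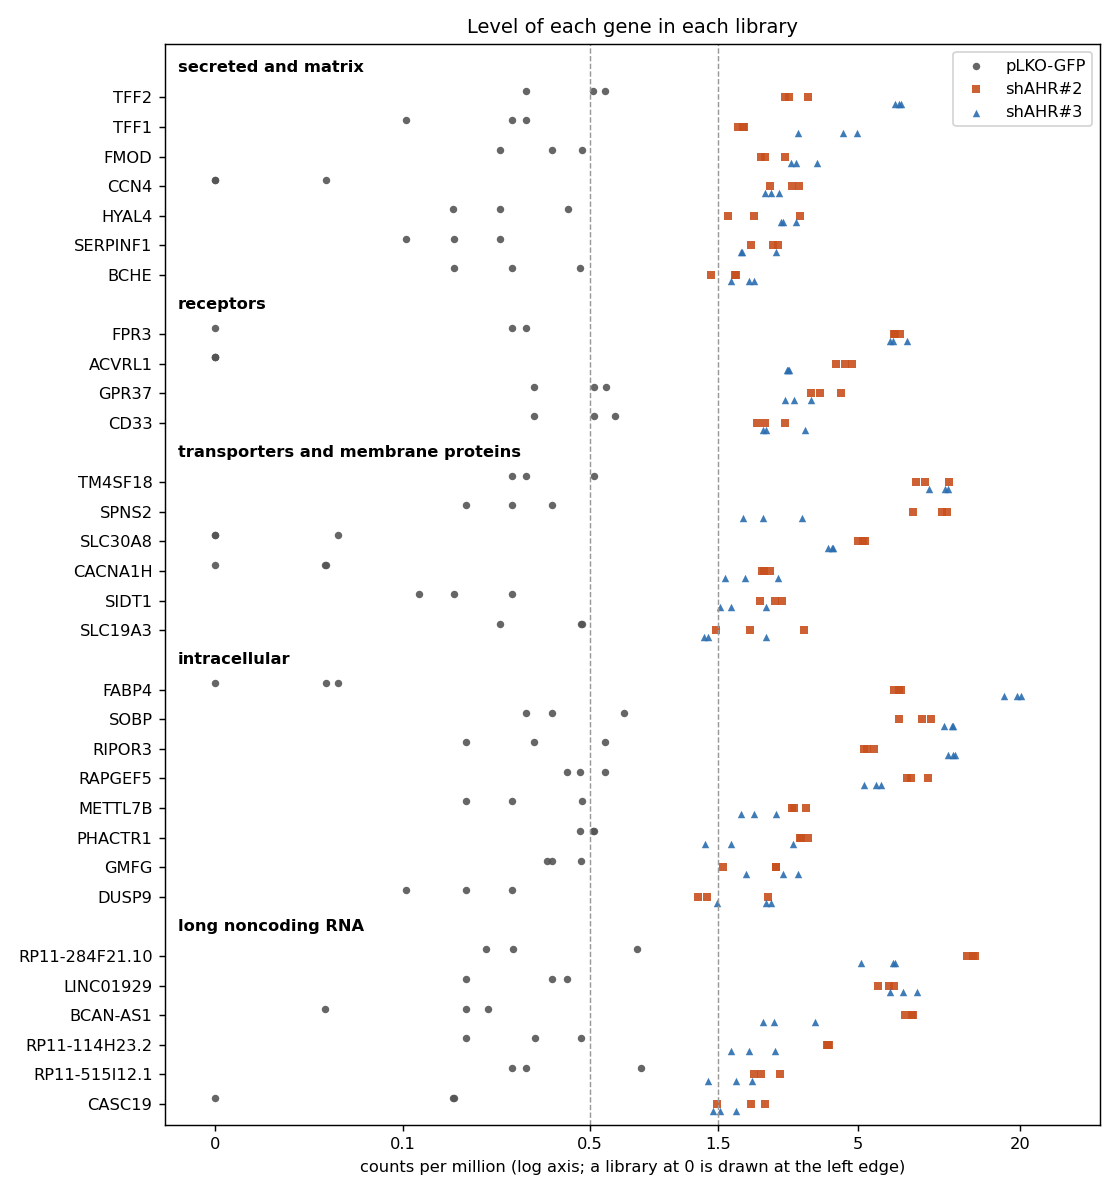
Levels in CPM of 31 of the 32 genes in each of the 9 libraries, grouped by the role of the product, on a log axis with 0 drawn at the left and dashed lines at the limits of 0.5 and 1.5 CPM. Every square and triangle (shAHR#2 and shAHR#3) lies right of every circle (pLKO-GFP) of its gene, and FABP4 reaches the highest level.

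Per length of exon the members stayed at the lower end of what these cells express. The median of CPM per kilobase of exon (RPKM) over the 32 members was 0.817 with shAHR#2 and 0.709 with shAHR#3, against medians of 3.85 and 4.05 RPKM over 14252 tested genes with a known length. With shAHR#2, 4 members exceeded the median tested gene, and with shAHR#3 3 did. The highest member was the noncoding RNA gene RP11-114H23.2 with shAHR#2, at 5.20 RPKM, and FABP4 with shAHR#3, at 14.0 RPKM.

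The limits cut through a continuous range of levels. Just under the control limit were PHACTR1 (0.496 CPM), CD33 (0.481 CPM) and RAPGEF5 (0.479 CPM), and just over it FBXL16 (0.508 CPM), SPOCK1 (0.510 CPM) and WDR72 (0.519 CPM). Among the members closest to the shAHR limit were CASC19 (1.57 CPM with shAHR#3) and BCHE (1.63 CPM with shAHR#2). DGKG (1.49 CPM with shAHR#2), LINC00330 (1.48 CPM with shAHR#2) and ABCA4 (1.47 CPM with shAHR#3) fell just short of it. With the limits applied to each library instead of to the mean, 17 of the 32 members kept every library on its side, FABP4, SLC30A8, FPR3 and ACVRL1 among them.

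**Figure D2:**
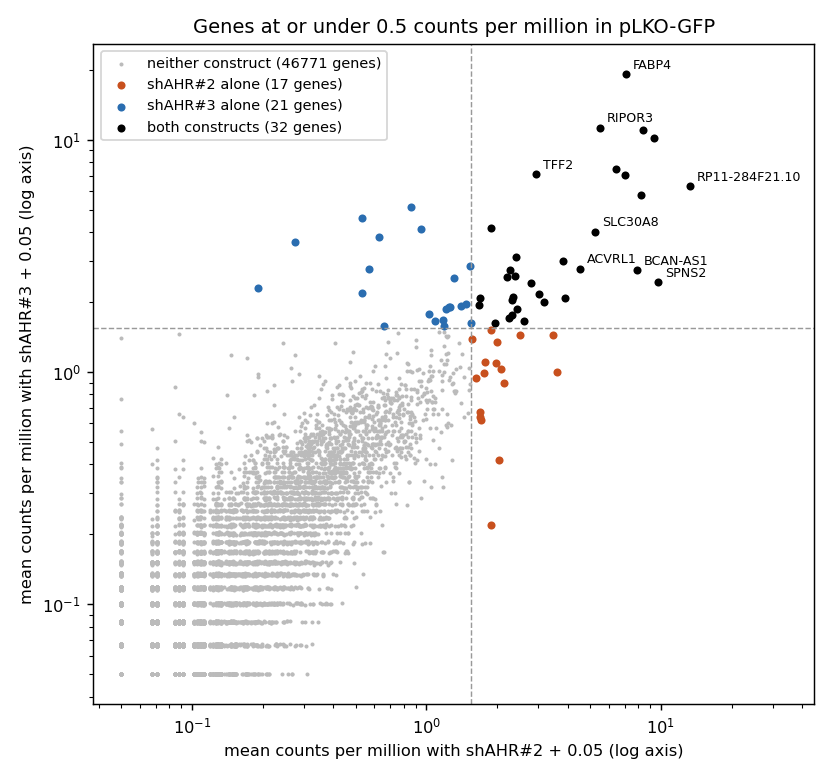
Mean CPM with shAHR#2 against shAHR#3 (log axes, 0.05 added) for the 46841 genes at or under 0.5 CPM in pLKO-GFP, with dashed lines at 1.5 CPM. The 32 members are the black points at the upper right, and the 17 and 21 genes that passed with a single construct lie on either side.

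Promoter sequence is shown for 4 members, because members that rise together may be asked what their start regions hold. RefSeq windows of GRCh38.p14, from 250 bases before to 50 after a gene's RefSeq start, were matched for 13 members. These members had 21 windows, of which PHACTR1 supplied 7 and RAPGEF5 and DUSP9 2 each. CpG dinucleotides were few in most of them: the median was 7 per window, against 25 over 15329 windows of genes tested and 14 over all 35116 windows. Under 10 CpG were held by 13 of the 21 member windows (61.9%), by 17.8% of windows of tested genes and by 43.6% of all windows. The counts ranged from 1 in a window of PHACTR1 to 45 in that of SOBP. The windows below cover the 250 bases before the RefSeq start on the gene's strand. Those of TM4SF18, RIPOR3 and FMOD lie inside the genes as GENCODE 44 places them (chr3:149318498-149334414, chr20:50586108-50691542 and chr1:203340628-203351758). That of SOBP runs past the GENCODE 44 start of the gene, at chr6:107490106. Motifs were searched on both strands, so a match can read as its reverse complement. Capitals mark GCGTG, the AHR core, and TATAAA, the letters of the TATA box, wherever in the window they fall. The third motif searched, TGANTCA, a site of AP-1, does not occur in these 4 windows, and no marked motif overlaps another. TM4SF18 (chr3:149333637-149333886, minus strand) and RIPOR3 (chr20:50636794-50637043, minus strand) are poor in CpG, and SOBP (chr6:107489867-107490116, plus strand) is rich in CpG. FMOD (chr1:203351123-203351372, minus strand) holds 3 cores in the bases shown. SOBP also has 3 in its full window, of which those at 28 and 32, after the start, are not shown.
TM4SF18: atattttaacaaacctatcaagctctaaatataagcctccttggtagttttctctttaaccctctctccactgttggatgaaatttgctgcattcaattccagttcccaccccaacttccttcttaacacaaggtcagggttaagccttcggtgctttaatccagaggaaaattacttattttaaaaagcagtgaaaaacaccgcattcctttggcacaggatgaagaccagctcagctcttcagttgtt
RIPOR3: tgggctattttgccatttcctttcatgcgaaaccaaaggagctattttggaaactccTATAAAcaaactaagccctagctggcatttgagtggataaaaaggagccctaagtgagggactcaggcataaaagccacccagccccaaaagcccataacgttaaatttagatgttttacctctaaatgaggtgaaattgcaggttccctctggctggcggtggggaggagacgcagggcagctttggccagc
SOBP: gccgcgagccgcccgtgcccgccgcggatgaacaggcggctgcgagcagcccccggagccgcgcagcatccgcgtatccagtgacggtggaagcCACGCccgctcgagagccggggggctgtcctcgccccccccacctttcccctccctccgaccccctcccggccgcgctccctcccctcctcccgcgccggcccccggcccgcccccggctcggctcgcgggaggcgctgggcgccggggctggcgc
FMOD: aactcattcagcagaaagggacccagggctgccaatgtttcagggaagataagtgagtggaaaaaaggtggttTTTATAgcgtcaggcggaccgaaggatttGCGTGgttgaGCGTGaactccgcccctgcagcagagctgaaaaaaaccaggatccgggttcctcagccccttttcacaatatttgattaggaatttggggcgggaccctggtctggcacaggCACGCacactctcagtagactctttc

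The AHR core was present in 8 of the 21 member windows (38.1%), against 48.0% of windows of tested genes and 36.5% of all windows. TATAAA occurred in 7 member windows (33.3%), against 6.30% of windows of tested genes and 11.5% of all windows. TGANTCA occurred in 3 member windows (14.3%), against 5.49% and 7.71%. These shares describe letters in the reference sequence, and the windows of 1 gene are not independent. Windows of other genes that were low in pLKO-GFP were not compared.

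Among the secreted and matrix proteins were TFF1 and TFF2, the trefoil peptides that protect mucosal surfaces and are adjacent on chromosome 21 (chr21:42362282-42366535 and chr21:42346357-42350997, GENCODE 44, minus strand). TFF2 had 5, 10 and 11 counts in pLKO-GFP, 62, 44 and 43 with shAHR#2 and 140, 134 and 145 with shAHR#3, so the 3 groups did not overlap. Its means were 0.456 ± 0.149, 2.88 ± 0.315 and 7.06 ± 0.184 CPM (SD, n = 3 each). TFF1 had 5, 5 and 2 counts in pLKO-GFP, 34, 30 and 30 with shAHR#2 and 85, 58 and 101 with shAHR#3. Both genes were higher with shAHR#3 than with shAHR#2, and the third trefoil gene is described below with their locus. CCN4, a matricellular protein of the Wnt pathway, had 0, 0 and 1 counts in pLKO-GFP, 45, 48 and 46 with shAHR#2 and 49, 44 and 48 with shAHR#3, nearly the same with both constructs. Its ratio of pooled CPM to control rests on a single control count (153 times with shAHR#2, with a 95% exact counting interval of 26.9 to 6070). Further secreted or matrix members had means of 1.63 to 3.09 CPM with shAHR: FMOD, a collagen-binding proteoglycan, SERPINF1, an inhibitor of vessel growth, BCHE, butyrylcholinesterase, and HYAL4, of the hyaluronidase family.

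The receptors were FPR3, ACVRL1, GPR37 and CD33. FPR3, a formyl peptide receptor of myeloid cells (chr19:51795157-51826190, plus strand), had 5, 5 and 0 counts in pLKO-GFP, 137, 110 and 110 with shAHR#2 and 131, 149 and 134 with shAHR#3. The constructs overlapped in CPM, with means of 6.95 ± 0.196 and 6.98 ± 0.560 CPM. ACVRL1, also called ALK1, is a receptor for BMP9 and BMP10 in endothelium (chr12:51906908-51923361, plus strand). It had 0 counts in all 3 control libraries, 79, 76 and 72 with shAHR#2 and 53, 54 and 55 with shAHR#3. Against a floor of 3 counts over the control group this made at least 83.0-fold for shAHR#2. For shAHR#3 the same floor gave at least 51.2-fold, both higher than control. GPR37, an orphan receptor of neural tissue, and CD33, a sialic acid binding receptor of myeloid cells, had control means near the limit (0.466 and 0.481 CPM) and reached 2.34 to 3.75 CPM.

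Of the transporters and membrane proteins, SLC30A8, which loads zinc into the insulin granules of islet cells, came from the lowest start: 1, 0 and 0 counts in pLKO-GFP, 95, 83 and 86 with shAHR#2 and 75, 78 and 82 with shAHR#3. In CPM its shAHR#3 libraries all lay under its shAHR#2 libraries. SPNS2, which exports the lipid mediator sphingosine 1-phosphate (chr17:4498881-4539035, plus strand), had 3, 5 and 7 counts in pLKO-GFP, 153, 165 and 174 with shAHR#2 and 36, 43 and 63 with shAHR#3. It was far above control with shAHR#2 (9.69 ± 1.48 CPM) and only moderately so with shAHR#3 (2.38 ± 0.640 CPM). TM4SF18, of a family of proteins with 4 membrane spans, had 5, 5 and 10 counts in pLKO-GFP, 169, 175 and 133 with shAHR#2 and 178, 205 and 221 with shAHR#3, with the constructs overlapping in CPM. CACNA1H, a T-type calcium channel, SIDT1, a protein of nucleic acid transport, and SLC19A3, a thiamine transporter, reached means of 1.66 to 2.39 CPM.

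Inside the cell, FABP4, the fatty acid carrier of adipocytes and macrophages encoded on chromosome 8, showed the highest CPM of any member in 1 group. It had 1, 0 and 1 counts in pLKO-GFP, 136, 115 and 110 with shAHR#2 and 381, 397 and 356 with shAHR#3, so the 3 groups were far apart. Pooled CPM was 198 times the control with shAHR#2 (95% exact counting interval 54.4 to 1640) and 538 times with shAHR#3 (148 to 4440), both resting on 2 control counts. SOBP, a zinc finger protein, had 5, 13 and 7 counts in pLKO-GFP, 179, 113 and 140 with shAHR#2 and 202, 222 and 228 with shAHR#3. RIPOR3 had 3, 6 and 11 counts in pLKO-GFP, 109, 86 and 85 with shAHR#2 and 219, 212 and 235 with shAHR#3. RAPGEF5, an exchange factor for the small GTPase Rap, went the other way between constructs, with 8, 8 and 11 counts in pLKO-GFP, 145, 145 and 127 with shAHR#2 and 102, 119 and 119 with shAHR#3. The remaining members of this kind, PHACTR1 (a regulator of phosphatase 1 and actin), METTL7B (a methyltransferase), GMFG (an actin regulator of blood cells) and DUSP9 (a MAP kinase phosphatase), reached means of 1.64 to 3.11 CPM.

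The 6 long noncoding RNAs included the neighbours BCAN-AS1 (chr1:156637783-156641004) and RP11-284F21.10 (chr1:156641666-156644887) on the minus strand of chromosome 1. RP11-284F21.10 had 13, 4 and 5 counts in pLKO-GFP, 243, 218 and 217 with shAHR#2 and 131, 100 and 140 with shAHR#3. BCAN-AS1 had 3, 1 and 4 counts in pLKO-GFP, 143, 127 and 130 with shAHR#2 and 47, 43 and 70 with shAHR#3. Both were highest with shAHR#2 and the groups did not overlap. LINC01929 (6.41 and 7.39 CPM), RP11-114H23.2 (3.86 and 2.03 CPM), RP11-515I12.1 (2.26 and 1.71 CPM) and CASC19 (1.91 and 1.57 CPM) were the others, with the mean for shAHR#2 first.

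The level reached differed between the constructs for part of the members. The choice of members asked the same of both constructs, and their difference was tested. The call was a Benjamini-Hochberg adjusted p under 0.05 in edgeR's quasi-likelihood test over 14274 genes. The choice left out genes that passed with a single construct, 17 with shAHR#2 and 21 with shAHR#3. It therefore shaped the share and the median of the members' differences. Of the 32 members, 14 differed: 5 were higher with shAHR#3 and 9 lower. Over all genes tested 42.3% differed, 21.9% higher and 20.4% lower, so the members' 43.8% was near that background. The libraries of the constructs did not overlap in CPM for 17 members, against 49.4% of genes tested. The median log2 difference, shAHR#3 minus shAHR#2, was -0.22 over members and 0.007 over all genes tested.

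Higher with shAHR#3 were FABP4 (log2 difference 1.40 ± 0.10, SE, adjusted p = 4.16e-14), TFF2 (1.24 ± 0.16, adjusted p = 3.08e-08) and TFF1 (1.12 ± 0.22, adjusted p = 6.40e-05). RIPOR3 (1.00 ± 0.13, adjusted p = 1.98e-08) and SOBP (0.35 ± 0.12, adjusted p = 0.0154) completed the group, and SOBP lost its call without shAHR#2 replicate 2 (adjusted p = 0.122), without shAHR#3 replicate 2 (adjusted p = 0.0524) and with DESeq2 (adjusted p = 0.0548).

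Lower with shAHR#3, the largest differences were those of SPNS2 (-2.05 ± 0.17, adjusted p = 8.87e-13), BCAN-AS1 (-1.57 ± 0.17, adjusted p = 4.85e-10) and RP11-284F21.10 (-1.12 ± 0.13, adjusted p = 2.44e-09). RP11-114H23.2 (-0.97 ± 0.21, adjusted p = 2.26e-04) and ACVRL1 (-0.74 ± 0.19, adjusted p = 0.0014) followed. PHACTR1, RAPGEF5 and SLC30A8 were lower by smaller differences, of -0.71, -0.55 and -0.42 on the log2 scale. The call of SLC30A8 (adjusted p = 0.034) was lost when any 1 of the 6 shAHR libraries was left out (adjusted p = 0.0596 to 0.0904). PHACTR1 lost its call without shAHR#3 replicate 1 (adjusted p = 0.108) or replicate 3 (adjusted p = 0.0643).

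For 18 members no difference was called, which does not show that they were equal. FPR3 (-0.03 ± 0.14) and TM4SF18 (0.09 ± 0.12) had the smallest uncertainty beside a difference near 0, while METTL7B (-0.53 ± 0.22, adjusted p = 0.0501) lay at the threshold.

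**Figure D3:**
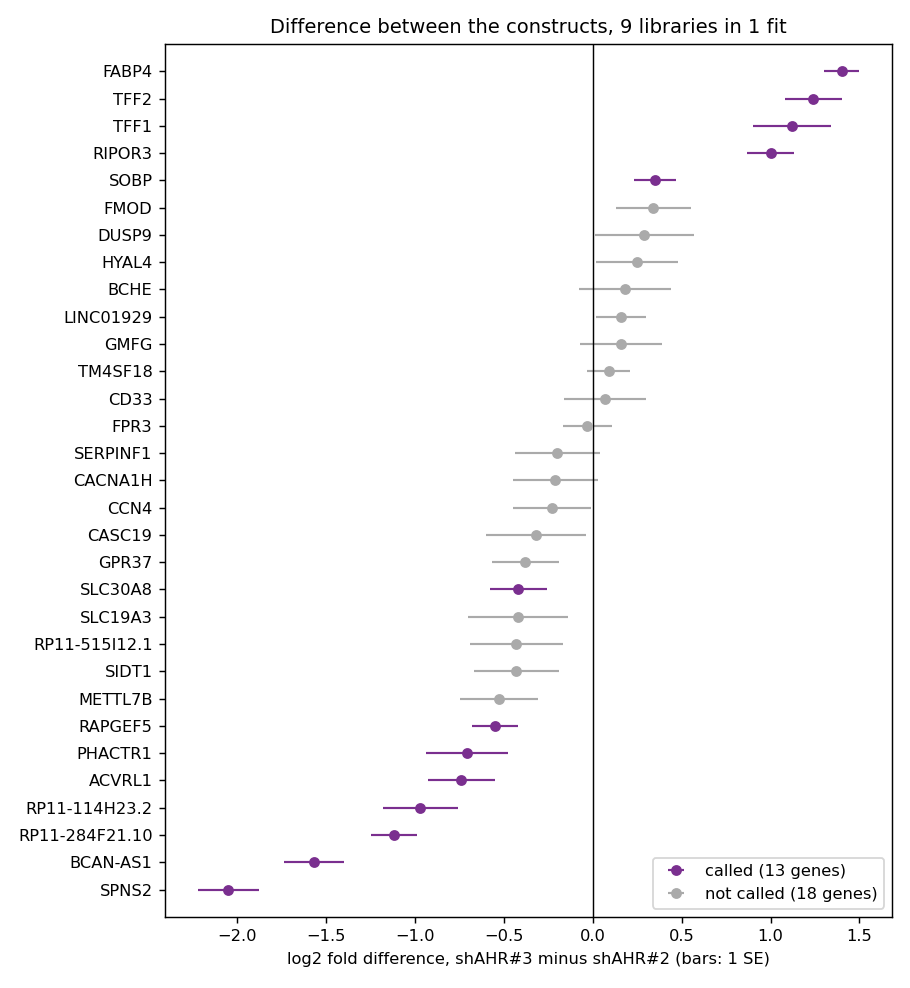
Log2 difference between shAHR#3 and shAHR#2 for 31 of the 32 members (points), with 1 SE (bars), from the fit of 9 libraries. The called members shown, 13 in number, run from SPNS2 at -2.05 to FABP4 at 1.40, and the 18 not called all lie between -0.53 and 0.34.

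Members sat beside each other at a pair of loci, and genes around them that were not members were tested against pLKO-GFP. The gap between BCAN-AS1 and RP11-284F21.10 was 662 bases and that between TFF2 and TFF1 11285 bases. The next closest pair, CD33 and FPR3, was 551297 bases apart.
On chromosome 1, a further antisense transcript, RP11-284F21.7, had its near end 1620 bases from RP11-284F21.10. It rose with both constructs, from 0.0172 CPM to 1.04 and 0.723 CPM (log2 fold change 5.47 ± 0.73 and 4.92 ± 0.78, edgeR adjusted p = 3.23e-08 and 1.43e-06). BCAN, the brain proteoglycan gene on the opposite strand, stayed at 0 to 3 counts in each library. The flanking genes NES and NAXE fell with both constructs, NES by 1.21 and 0.33 and NAXE by 0.80 and 0.34 on the log2 scale, so the rise did not extend to them.
On chromosome 21, TFF3, the other trefoil gene, lay at 0.321 CPM in pLKO-GFP, 0.226 CPM with shAHR#2 and 3.56 CPM with shAHR#3. It rose with shAHR#3 (log2 fold change 3.48 ± 0.32, adjusted p = 6.06e-12) and was not called with shAHR#2 (-0.38 ± 0.56, adjusted p = 0.567), and the constructs differed (log2 difference 3.86, adjusted p = 7.96e-12). TMPRSS3, a membrane serine protease gene on the far side of TFF1, rose with both, to 0.520 and 2.71 CPM, and more so with shAHR#3 (log2 difference 2.36, adjusted p = 4.06e-07). ABCG1, a sterol exporter gene, fell by 0.92 with shAHR#2 and rose by 1.70 with shAHR#3 on the log2 scale.
On chromosome 12, RP11-114H23.2 lies inside RP11-114H23.1 on the same strand, which rose from 0.695 to 5.96 and 2.72 CPM, so reads may be shared between them. The pseudogene RPL10P13 in the same span rose as well, to 1.28 and 0.777 CPM.

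**Figure D4:**
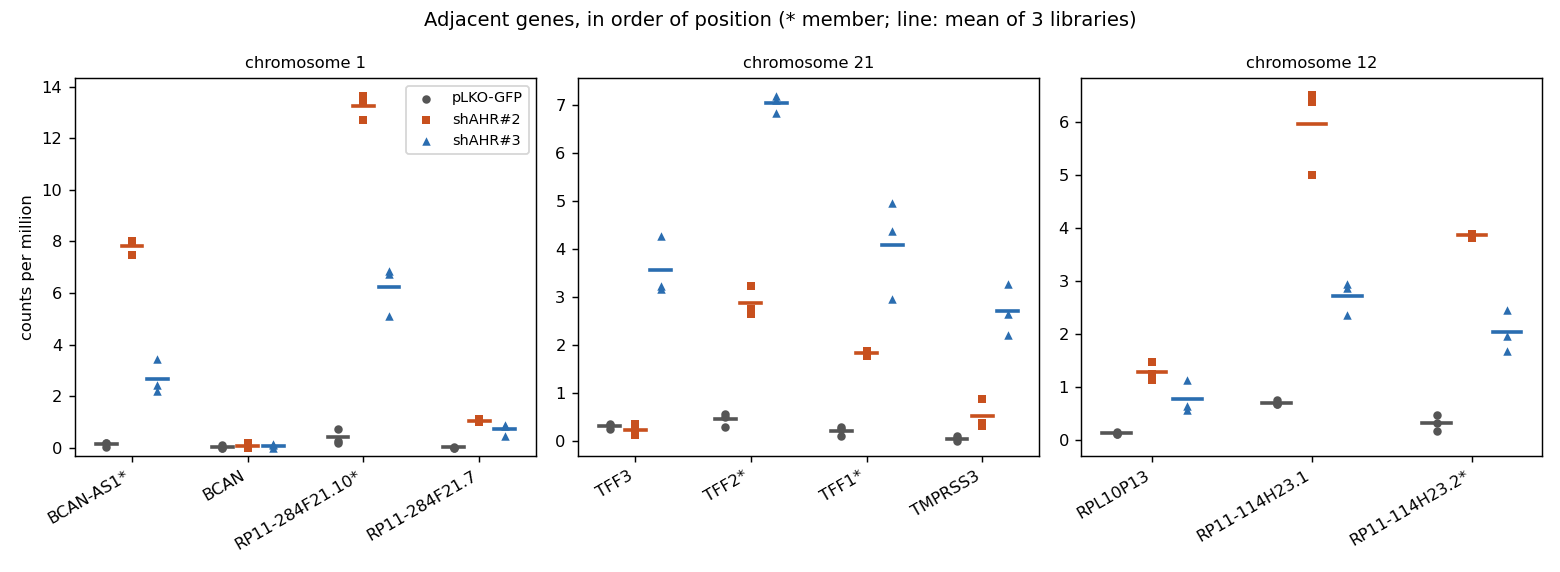
CPM of adjacent genes at 3 loci, in order of position, with 3 libraries per group (points) and their mean (line); members carry an asterisk. On chromosome 1 the antisense transcripts are highest with shAHR#2 while BCAN stays near 0, on chromosome 21 all 4 genes are highest with shAHR#3, and on chromosome 12 all 3 are highest with shAHR#2.

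Over all members, 34 neighbouring genes within 100 kb that were tested and not members were found, beside 26 members. With shAHR#2, 19 of them rose, 5 fell and 10 were not called, and with shAHR#3 16 rose, 5 fell and 13 were not called. The shares called were 70.6% and 61.8%, against 65.8% and 54.4% of all genes tested in the same comparisons, which share the control libraries. Their median log2 fold change was 0.31 with shAHR#2 and 0.20 with shAHR#3, against -0.003 and 0 over all genes tested. Some of these neighbours, already high in control cells, rose: TM4SF1, the paralog next to TM4SF18, went from 226 to 453 and 406 CPM, NDRG1 beside CCN4 from 144 to 453 and 204 CPM, and ACVR1B beside ACVRL1 from 19.2 to 29.6 and 27.8 CPM, all called with both constructs. Others high in control cells fell with both: PTPN1, a phosphatase gene that lies 867 bases from RIPOR3, went from 231 to 167 and 168 CPM (adjusted p = 1.93e-14 and 4.14e-15), and POT1, a telomere protein gene beside GPR37, from 49.1 to 42.1 and 41.5 CPM.

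Overlapping genes bear on some counts, since whether the counting used strand is not given in the sources used here. SPNS2 overlaps MYBBP1A (79.3 CPM in pLKO-GFP) on the opposite strand, FPR3 overlaps FPR1 (6.46 CPM) and ZNF577 (6.32 CPM), and PHACTR1 overlaps TBC1D7 (11.0 CPM). In pLKO-GFP SPNS2, FPR3 and PHACTR1 had means of 0.263, 0.181 and 0.496 CPM beside those levels, and their choice required at most 0.5 CPM there. With shAHR#2 and shAHR#3 MYBBP1A rose by 0.44 and 0.18 and TBC1D7 fell by 1.22 and 0.31 on the log2 scale. FPR1 was called with neither construct (-0.11 and 0.1), and ZNF577 was called with shAHR#3 only (0.25 and 0.33). Whether reads were shared was not tested.

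Relatives of the protein-coding members were listed from general knowledge to see whether whole families moved. Of 80 relatives, 44 were tested: 16 rose, 14 fell and 14 were not called with shAHR#2, and 18 rose, 10 fell and 16 were not called with shAHR#3. The shares called, 68.2% and 63.6%, were near the background of 65.8% and 54.4%, and the medians were -0.06 and 0.10 on the log2 scale. FPR1, a relative of FPR3, was not called (log2 fold change -0.11 ± 0.13 and 0.10 ± 0.12). FABP5, the epidermal relative of FABP4, rose from 24.0 to 33.0 and 32.4 CPM. ACVR1, a relative of ACVRL1, fell by 0.29 with shAHR#2 and was not called with shAHR#3 (-0.15 ± 0.07).

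FABP4 is a classical target of PPARG, the nuclear receptor of fat cell formation, and a list of 31 tested PPARG and fatty acid handling genes, FABP4 left out, was followed against pLKO-GFP. With shAHR#2, 16 of them rose, 9 fell and 6 were not called (80.6% called, median log2 fold change 0.22), and with shAHR#3 21 rose, 3 fell and 7 were not called (77.4%, median 0.33). Of all genes tested, 65.8% were called with shAHR#2 and 54.4% with shAHR#3, and 49.6% and 49.4% of those called were higher. PPARG itself rose from 51.7 ± 0.889 CPM to 116 ± 0.327 and 114 ± 1.19 CPM (log2 fold change 1.23 ± 0.04 and 1.17 ± 0.04, adjusted p = 5.96e-26 and 4.68e-25). PLIN4, a lipid droplet coat protein, rose from 0.0858 to 0.895 and 4.09 CPM, and CEBPA, a transcription factor of fat cell formation, from 0.673 to 4.02 and 5.66 CPM. PLIN2, PDK4 and ANGPTL4, known targets of PPAR receptors that were picked after their values were seen, rose with both constructs by 0.76 to 1.26 on the log2 scale. Other known targets did not rise with both: CPT1A and LPL were not called with shAHR#2 (-0.05 ± 0.04 and -0.38 ± 0.25) and were 0.10 and 0.52 higher with shAHR#3, and CD36, too low to be tested, had 5 to 9 counts in each pLKO-GFP library, at most 1 with shAHR#2 and at most 4 with shAHR#3. PPARD, PPARA and the sterol exporter ABCA1 fell with both, by 0.17 to 0.53.

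**Figure D5:**
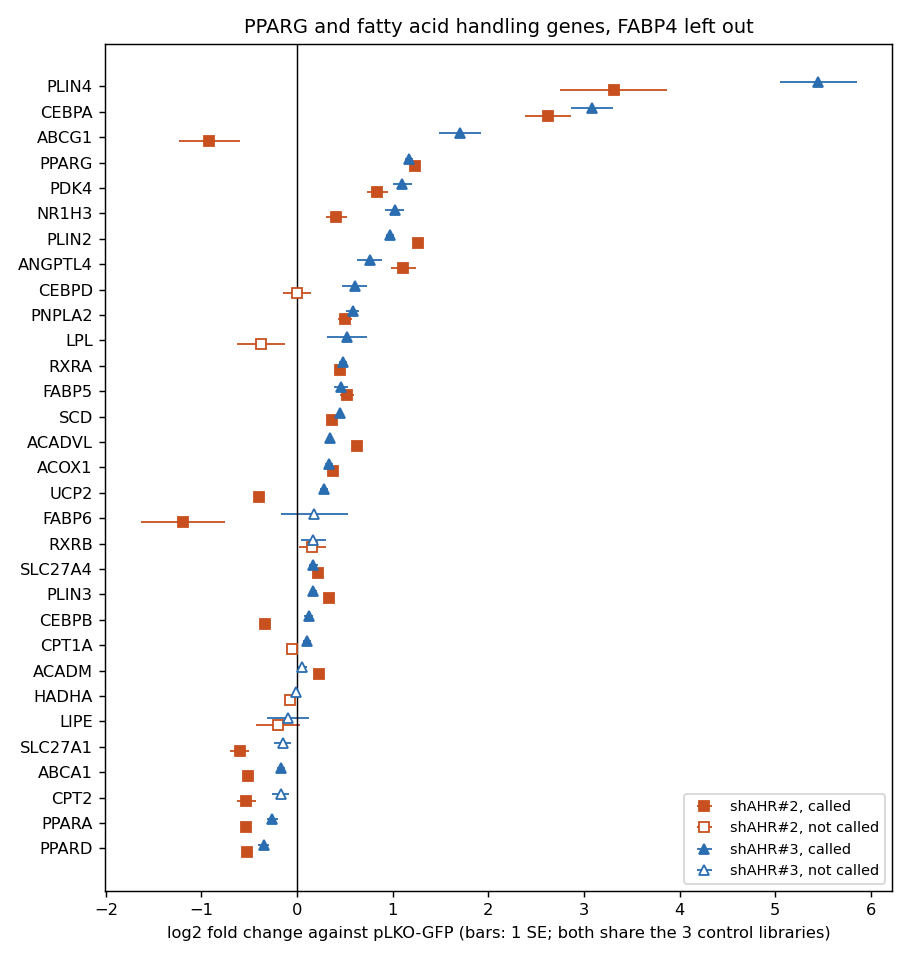
Log2 fold change against pLKO-GFP of 31 PPARG and fatty acid handling genes with shAHR#2 (squares) and shAHR#3 (triangles), with 1 SE (bars) and open symbols where not called. PLIN4, CEBPA and PPARG rise with both constructs, and ABCG1 falls with shAHR#2 and rises with shAHR#3.

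Of 20 tested genes of ALK1 and BMP signalling, ACVRL1 left out, 9 rose, 10 fell and 1 was not called with shAHR#2 (95.0% called, median log2 fold change -0.18), and 11 rose, 3 fell and 6 were not called with shAHR#3 (70.0%, median 0.31). The shares called over all genes tested were 65.8% and 54.4%. SMAD6, an inhibitor of the pathway, rose by 1.10 ± 0.11 and 1.89 ± 0.10, the target HEY1 by 1.55 ± 0.28 and 1.31 ± 0.28, and the ligand BMP6 by 2.40 ± 0.41 and 1.48 ± 0.45 on the log2 scale, the last not called with shAHR#3 when pLKO-GFP replicate 2 was left out (1.06, adjusted p = 0.0556). SMAD5 and SMAD4, which carry the signal, fell by 0.28 and 0.27 with shAHR#2 and by 0.31 and 0.29 with shAHR#3. BMPR1A fell by 0.23 and 0.13, with the call in shAHR#3 lost without pLKO-GFP replicate 2 (adjusted p = 0.142) or shAHR#3 replicate 2 (0.0526). ENG, the coreceptor of ACVRL1 and picked after its values were seen, fell by 2.05 with shAHR#2 and was not called with shAHR#3 (0.15 ± 0.27).

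Of 11 tested genes of formyl peptide and complement receptors and their couplers, FPR3 left out, 4 rose and 1 fell with shAHR#2 (45.5% called, median 0.04) and 3 rose and 1 fell with shAHR#3 (36.4%, median 0.06). Both shares lay under those of all genes tested, 65.8% and 54.4%. ARRB1, an arrestin, rose by 0.58 and 0.97 and GNAI1, an inhibitory G protein subunit, by 0.31 and 0.29 on the log2 scale. Among 52 tested genes of DNA methylation and chromatin silencing, 19 rose, 18 fell and 15 were not called with shAHR#2 (71.2% called), and 16 rose, 17 fell and 19 were not called with shAHR#3 (63.5%), with medians of 0 and -0.03. These shares stand beside the same 65.8% and 54.4%. MBD2, which binds methylated DNA, fell by 1.73 with shAHR#2 and 0.98 with shAHR#3, and the chromatin remodeller ATRX by 0.76 and 0.57. TET1, which oxidises methylated cytosine, rose by 1.09 and 0.68, the methyltransferase DNMT3B by 0.30 and 0.78 and RCOR1, of a corepressor complex, by 0.56 and 0.23.

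A list of 39 cancer-testis and germline genes, which are held silent by DNA methylation in most tissues, contained no member. Only 5 of them were tested, of which 5 fell with shAHR#2 (100% called, median -1.17) and 3 with shAHR#3 (60.0%, median -0.45), MAEL, SPANXC and SPANXB1 with both. Of 7 tested AHR target genes, 1 rose and 5 fell with shAHR#2 (85.7% called, median -0.26) and 2 rose and 4 fell with shAHR#3 (85.7%, median -0.18). For both lists the shares called over all genes tested were 65.8% with shAHR#2 and 54.4% with shAHR#3. CYP1B1 fell by 2.65 and 0.44, CYP1A1 by 2.47 and 1.23 and NQO1 by 1.40 and 0.71 on the log2 scale, while ALDH3A1, an aldehyde dehydrogenase, rose by 3.01 and 2.42.

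Several members are known as markers of other cell types, and marker lists of those types were summed. The 10 macrophage or monocyte markers summed to 4.36 to 5.73 CPM in pLKO-GFP, 3.21 to 5.28 with shAHR#2 and 5.42 to 6.14 with shAHR#3, beside the rise of FPR3 and CD33. On this list CD163, TYROBP and FCGR3A were at 0 in all 9 libraries, and PTPRC, the leukocyte antigen CD45, rose from 0.122 to 1.34 and 1.0 CPM (log2 fold change 3.45 ± 0.51 and 2.98 ± 0.53, edgeR adjusted p = 2.63e-07 and 1.05e-05). CD14 and CSF1R fell with shAHR#2, by 1.40 and 0.78 on the log2 scale, and were not called with shAHR#3, and CD68 was called with neither. The 10 islet markers summed to 1.03 to 1.65, 2.72 to 3.03 and 2.06 to 2.30 CPM beside SLC30A8, nearly all of it NKX6-1, and 8 of them, INS included, were at 0 throughout. The adipocyte markers rose from 54.9 to 55.3 CPM to 119 and to 121 to 123 CPM, nearly all of it PPARG, while ADIPOQ and LEP were at 0 in all libraries. The endothelial markers rose from 72.6 to 81.2 CPM to 148 to 160 and 120 to 132 CPM beside ACVRL1. Most of the sum was ESAM (69.6, 140 and 113 CPM), and PECAM1 rose from 2.45 to 10.9 and 12.2 CPM. KDR, a receptor for VEGF on the same list, fell from 4.30 to 0.603 and 0.333 CPM (log2 fold change -2.75 ± 0.28 and -3.62 ± 0.30, edgeR adjusted p = 5.43e-11 and 6.52e-13). VWF had 0 counts in each pLKO-GFP library, 4 to 7 with shAHR#2 and 4 to 9 with shAHR#3, CDH5 reached a mean of at most 0.333 CPM, and ERG and CLDN5 were at 0 throughout. The neuronal markers summed to 5.78 to 8.97, 4.31 to 5.50 and 4.91 to 6.82 CPM beside GPR37, most of it SYT1, which fell from 6.70 to 4.48 and 4.79 CPM, with STMN2, NEFL, NEFM and ELAVL4 at 0 in all libraries. The mammary epithelial markers summed to 952 to 1010, 1050 to 1090 and 1240 to 1340 CPM. The part of these other markers in the members' levels was not tested.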

How the data were processed

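The authors isolated total RNA with on-column DNase treatment and prepared stranded mRNA libraries from 500 ng. These were sequenced from a single end and aligned to GRCh38.p13 with STAR. The submitters' processing notes also name FastQC, Subread and featureCounts. The authors deposited raw counts per gene for 9 libraries without normalization, and the annotation release is not given in the sources used here.

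From these counts, group means in CPM of column totals chose the members (at most 0.5 CPM in pLKO-GFP, at least 1.5 CPM with each construct). Members, gene lists and roles were chosen with earlier results of these data known. Tests used edgeR 4.0.16 in R 4.3.3: filterByExpr (minimum count 10, minimum total count 15), TMM scaling and the quasi-likelihood test in 1 fit of 9 libraries with a mean per group, with Benjamini-Hochberg adjustment over 14274 genes. DESeq2 1.42.0 served as an alternative, since the study used it. The fit was also run on simulated counts that gave every gene the same spread, so that run does not cover spread that differs between genes. Folds of genes with 1 to 3 control counts carry 95% exact intervals that cover counting error only, and a floor of 3 counts replaced a control group at 0. Positions and exon lengths came from GENCODE 44, in which 60507 of 60649 gene identifiers were found, and promoter windows from RefSeq.

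Members were named if they were FABP4, SLC30A8 or FPR3, among the 12 highest over the shAHR libraries, among the 5 largest called differences each way between constructs, or nearest to a limit; the others were named by role, and a few genes that meet these rules are not reported here. From each gene list up to 3 rises and 3 falls called with both constructs were named. Neighbours and relatives were named after their values were seen.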

Additional observations from a re-analysis of the deposited data

Results flagged for a closer look

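The levels of 14 members differed between the constructs by the test of the difference itself (edgeR, adjusted p under 0.05), beside 42.3% of all genes tested. In log2 units, shAHR#3 minus shAHR#2, the members lower with shAHR#3 included SPNS2 (-2.05), BCAN-AS1 (-1.57), RP11-284F21.10 (-1.12), RP11-114H23.2 (-0.97), ACVRL1 (-0.74), PHACTR1 (-0.71), RAPGEF5 (-0.55) and SLC30A8 (-0.42). The members higher with shAHR#3 were SOBP (0.35), RIPOR3 (1.00), TFF1 (1.12), TFF2 (1.24) and FABP4 (1.40). AHR itself was 0.19 higher with shAHR#3, and its part in these differences was not tested.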

How the results depend on the processing

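The number of members depends on the limits that define them. It was 107 with at most 1 CPM allowed in pLKO-GFP, 13 with at most 0.25 CPM, 65 with at least 1 CPM asked of the constructs, 9 with at least 3 CPM, and 17 with every library on its side. Leaving out 1 library at a time gave 28 to 36 genes, and 21 of the 32 members were kept without any 1 library. TMM effective library sizes gave 36 and medians in place of means 29. Of 448 alternative values of the members' differences between constructs, none changed sign with a call, 16 lost the call and 5 gained it. DESeq2 called 11 of the 14 members, and SLC30A8 and SOBP were among those it did not call. Without any filter on low counts, 9 cancer-testis and germline genes were called with shAHR#2 in place of 5. All other counts stayed within 1.5 times, 236 of 242 in all.

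The replicate numbers are not stated to mark a shared batch, and the deviations of same-numbered libraries correlated by -0.09 to 0.08, so the numbers were not taken as pairs. With the replicate block, 14 members were called between constructs, 5 higher and 9 lower with shAHR#3, as without it.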
